A study of Homo sapiens with 12 samples.

Results

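The genes described here are 37 genes of NRF2 signalling and antioxidant defence in human fibroblasts, chosen as a list of gene symbols and matched to the Ensembl identifiers of a count table of 60671 genes. All 37 symbols had an identifier, and 36 had enough counts to be tested. The other one, GPX3 (the secreted glutathione peroxidase), had 4 to 21 counts in each library and was not tested. NRF2, encoded by NFE2L2, is a transcription factor that the adaptor protein KEAP1 hands to a ubiquitin ligase in unstressed cells. When electrophiles or oxidants modify KEAP1, NRF2 accumulates, pairs with small MAF proteins and binds antioxidant response elements in genes for glutathione synthesis, the thioredoxin system, NADPH supply, quinone reduction and iron storage. Much of this control acts on the NRF2 protein, which RNA levels do not measure. Enzymes such as the superoxide dismutases, catalase and most peroxiredoxins remove the oxidants themselves, and several of them are also under other control.

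The cells were BJ-5ta, a line of human foreskin fibroblasts immortalised with telomerase, either wild type (WT) or with LEO1 knocked out by CRISPR/Cas9 (ΔLEO1). LEO1 is a subunit of the PAF1 complex, which travels with RNA polymerase II. Each genotype was grown in medium with 10% serum or kept for 10 days in 0.1% serum, a regime that brings fibroblasts to quiescence, and each of the 4 groups had 3 libraries of polyadenylated RNA with ERCC spike-in RNA added. The ΔLEO1 cells were 1 clone, so the clone and the loss of LEO1 cannot be told apart, and nothing in the labels says that the 3 libraries of a group came from separate cultures. The p-values therefore measure the spread between these libraries, which may be technical. The libraries held 26240632 to 45315560 gene counts, and ERCC counts made up 0.625 to 3.24% of each. LEO1 itself, on chromosome 15 (GRCh38, 51938025 to 51971806), had 682 to 1001 counts per library in WT cells and 23 to 55 in ΔLEO1 cells, which matches the labels in all 12 libraries. The fibroblast markers fixed for this work were all expressed, with 70101 to 100751 counts per 1000000 gene counts (CPM) in sum. Markers of epithelial cells, endothelial cells and leukocytes reached at most 9.01 CPM in sum, with endothelial markers at 2.01 to 5.55 CPM in WT and at most 0.644 CPM in ΔLEO1 libraries, and leukocyte markers at 2.01 to 2.96 CPM in WT and 3.15 to 9.01 CPM in ΔLEO1 libraries. Of 6 melanocyte markers only MITF was above 1 CPM, at 15.4 to 20.9 CPM in WT cells, 65.6 to 70.7 in ΔLEO1 cells in 10% serum and 22.2 to 40.6 in ΔLEO1 cells in 0.1% serum, and the part of these markers in the results below was not tested.

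In each group the library with the highest number stood apart. The SD of log2 CPM differences between the other two libraries of a group was 0.118 to 0.191, and that between either of them and the highest-numbered library was 0.312 to 0.416. Values of 3 libraries are therefore listed with the highest-numbered library last, and for several results that rest on it the value without it is given as well. There were 2 scales. On the ERCC scale, which was the main one, counts were divided by the ERCC counts of the library, so that a change in the amount of RNA per added spike-in counts as a change. On the relative scale, counts were normalised on the genes themselves, so that a change is one against the other genes. On the ERCC scale the median gene was -0.97 (log2) in 0.1% against 10% serum in WT cells and -1.05 in ΔLEO1 cells, and it was 0.35 and 0.27 in ΔLEO1 against WT cells in 10% and 0.1% serum, while on the relative scale the median gene lay between 0.0039 and 0.020. In these bulk libraries fewer cells, less RNA per cell and a different amount of RNA put into a library cannot be told apart. The study's methods give a range for the starting RNA. Within ΔLEO1 cells in 0.1% serum, ERCC counts made up 1.88, 3.24 and 1.09% of the libraries. Log2 fold changes are given with their SE, and a gene was called where the adjusted p of edgeR's quasi-likelihood test was under 0.05. The SE of the members ran from 0.44 to 0.58 on the ERCC scale and from 0.07 to 0.72 on the relative scale for the serum and genotype comparisons.

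To show what the promoters of the members hold, the 300 bases around each annotated start (250 before, 50 after) were searched on both strands for TGACNNNGC, the core of the antioxidant response element. RefSeq (GRCh38.p14) gave such a window for 31 of the 37 members, and FTH1, GSR, HMOX1, PRDX1, PRDX6 and SOD1 were not in that table. A match stood in 5 members (16.1%), against 15.1% of the windows of 10210 tested genes, so the core was about as common in the members as elsewhere. For each of these 5 members 1 match is printed, chosen by the presence of the core. Whether the matches bear on the serum responses given below was not tested. Capitals mark the match on the strand of the gene.
GCLM, chr1:93909448-93909472, minus strand, 34 bases before the start: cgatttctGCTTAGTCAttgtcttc
TXNRD1, chr12:104215672-104215696, plus strand, 99 bases before the start: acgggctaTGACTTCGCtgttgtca
ME1, chr6:83431172-83431196, minus strand, 137 bases before the start: tcctgccaTGACTCAGCgcttctcg
GSTP1, chr11:67583738-67583762, plus strand, 66 bases before the start: cggcgccgTGACTCAGCactggggc
PGD, chr1:10398855-10398879, plus strand, 201 bases before the start: tcgccgggGCAATGTCAtctaggtg
In GCLM and PGD the printed match lay on the opposite strand of the gene, so the reverse complement is in capitals. ME1 and TXNRD1 each held 1 more match, not printed, on the opposite strand. That of ME1 lay past the start site, and that of TXNRD1 began 8 bases before the start and reached across it. All distances are from the RefSeq start. For GCLM the gene position given below starts further upstream, at 93909456, a base that the printed match (93909456 to 93909464) includes. The printed matches of ME1 and GSTP1 also hold TGACTCA, the core bound by AP-1 factors, which occurred in the windows of 3 members and of 3.05% of the tested genes. NQO1 had no match in its window, which says only that these letters are absent from these 300 bases.

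The members spanned a wide range of levels. Per base of exon, as transcripts per 1000000 (TPM), the light and heavy chains of ferritin were far above the rest, with means of 8475 (FTL) and 3625 (FTH1) in WT cells in 10% serum. PRDX5 (758), PRDX1 (742), PRDX6 (558), TXN (475) and GSTP1 (446) followed, and AKR1C2, at 0.618, was the lowest of the tested members. NFE2L2 and KEAP1 had means of 78.8 and 68.2 TPM in WT cells in 10% serum. Together the 37 members took 0.688, 0.704 and 0.833% of the gene counts in WT cells and 0.919, 0.928 and 0.917% in ΔLEO1 cells in 10% serum, and 0.558, 0.606 and 0.661% against 0.76, 0.729 and 0.634% in 0.1% serum. In 10% serum every ΔLEO1 library was above every WT library, and in 0.1% serum the genotypes overlapped through the highest-numbered libraries. Most of the margin in 10% serum came from ferritin, with 0.317, 0.326 and 0.339% of counts in WT and 0.45, 0.452 and 0.426% in ΔLEO1 cells. Without the ferritin genes the shares overlapped, at 0.371, 0.378 and 0.494% against 0.469, 0.476 and 0.491%. The overlap came only through the highest-numbered WT library, in which SOD2 stood at 1029 CPM, against 128 and 141 CPM in the lower-numbered WT libraries.

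The first question was how the members responded to serum deprivation. On the ERCC scale 19 of the 36 tested members (52.8%) fell and 0 rose in WT cells, where 27.0% of all 13236 tested genes fell and 0.831% rose. In ΔLEO1 cells 22 members (61.1%) fell and 1 rose, with 36.4% of all genes falling and 0.793% rising. In WT cells 0 members rose by edgeR's quasi-likelihood test, 0 reached an unadjusted p under 0.05 in that direction, and edgeR's likelihood ratio test and DESeq2 called 0 as well. The ERCC differences of the lower members ran from -3.01 (NQO1) to -1.23 (GSTP1) in WT cells and from -3.10 (NQO1) to -1.17 (PRDX4) in ΔLEO1 cells, and in all 12 fits that left out 1 library GCLM, HMOX1, NQO1, TKT and TXNRD1 kept their call in WT cells and FTL, ME1, NQO1 and TXNRD1 in ΔLEO1 cells. SOD2 and MGST1 were called lower in WT cells only, and AKR1C2, GCLC, PRDX3, PRDX4 and SOD1 in ΔLEO1 cells only, but no member was called for the interaction on this scale. The medians over the members were -1.24 in both genotypes, which is -0.28 and -0.20 relative to the median gene. Relative to the other genes 14 members fell and 8 rose in WT cells (38.9% and 22.2%), against 16.1% and 15.5% of all genes. In ΔLEO1 cells 12 fell and 4 rose (33.3% and 11.1%), against 12.1% and 15.5%. Without the highest-numbered libraries the ERCC scale gave 25 lower and 0 higher members in WT cells (63.1% of all genes lower and 1.19% higher) and 33 lower and 1 higher in ΔLEO1 cells (91.3% lower and 0.68% higher), and the relative scale 22 lower and 10 higher (29.9% and 26.9% of all genes) and 19 lower and 8 higher (27.6% and 28.1%). The genotypes shared 17 of the lower members on the ERCC scale, which is 89.5% of the WT calls and 77.3% of the ΔLEO1 calls, and 10 on the relative scale (71.4% and 83.3%). These 2 comparisons have no library in common. The overlap over all tested genes was not counted, so these shares cannot be read as particular to the members. Counted without a test, the 3 libraries of 0.1% serum lay wholly below those of 10% serum for 23 members and wholly above for 0 in WT cells on the ERCC scale (53.4% and 1.16% of all genes), and for 24 and 1 in ΔLEO1 cells (50.9% and 0.846%). In CPM the counts were 14 and 9 in WT (18.6% and 31.5%) and 15 and 7 in ΔLEO1 cells (15.8% and 27.3%). With libraries numbered 1 to 3 (WT, 10% serum), 4 to 6 (ΔLEO1, 10%), 7 to 9 (WT, 0.1%) and 10 to 12 (ΔLEO1, 0.1%), the 19 lower members in WT cells became 5 without library 7 (5.63% of all genes lower in that fit), 8 without library 1 (6.81%) or 2 (8.85%) and 9 without library 9 (7.45%). The 22 in ΔLEO1 cells became 4 without library 10 (3.06% of all genes), 5 without library 4 (4.51%), 9 without library 11 (6.19%), 12 without library 5 (9.98%) and 14 without library 7 (16.8%). The share of all genes called lower thus fell in the same fits. For the relative scale, the 14 lower members in WT cells became 8 without library 3 (13.9% of all genes) or 8 (10.7%) and 9 without library 7 (12.1%), and the 8 higher ones 4 without library 1 (11.1%) or 3 (11.6%). The relative counts in ΔLEO1 cells ranged over 10 to 14 lower and 3 to 5 higher. The shares of all genes in those ΔLEO1 fits are not given here, so these ranges say nothing particular to the members.

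**Figure D1:**
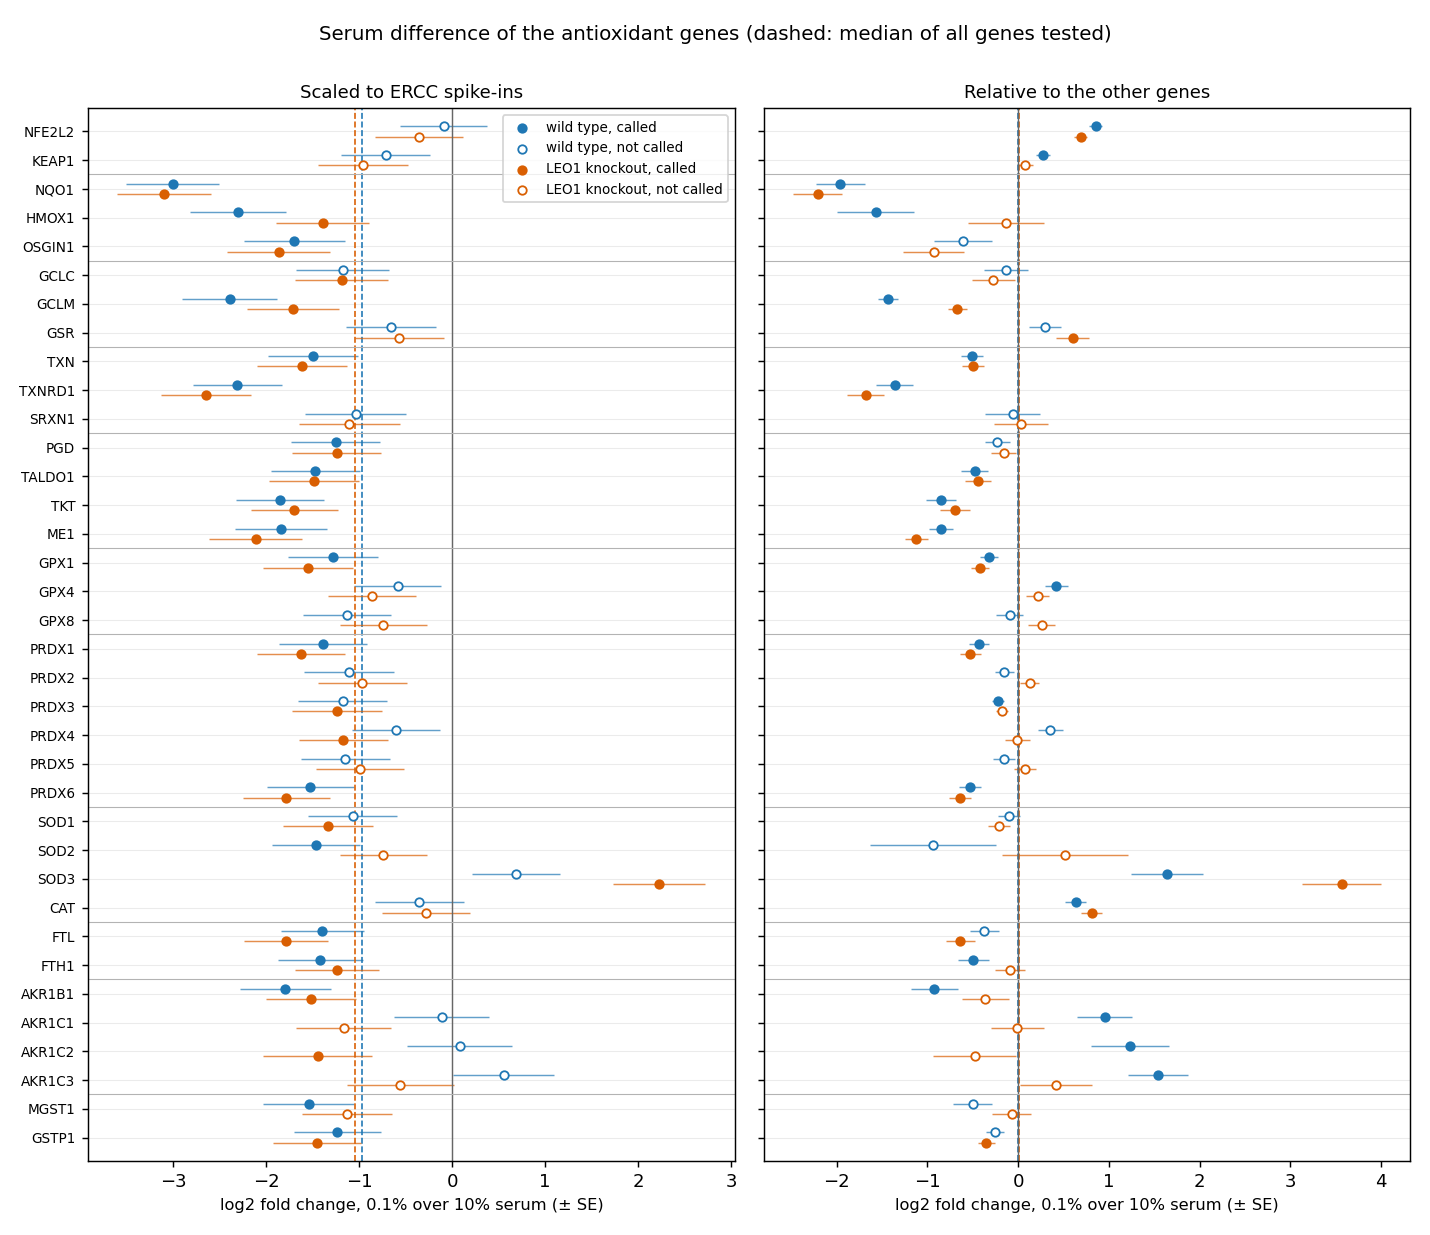
Log2 fold change of each tested member between 0.1% and 10% serum (horizontal axis, points with SE bars) for WT (blue) and ΔLEO1 cells (orange), scaled to the ERCC spike-ins on the left and relative to the other genes on the right, with members grouped by role and the median of all tested genes dashed. NQO1 lies farthest to the left in both genotypes, TXNRD1, GCLM and ME1 also lie left of the medians, and SOD3, NFE2L2 and CAT lie to the right of them.

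The second question was how ΔLEO1 cells differed from WT cells in the same serum. On the ERCC scale 2 members were called lower (SOD2 and SOD3) and 1 higher (PRDX6) in 10% serum, where 4.2% of all genes were lower and 3.81% higher. In 0.1% serum AKR1C3 was lower and PRDX6 higher, against 3.41% and 3.49% of all genes. AKR1C3 passed the filter only through WT libraries, so its calls between the genotypes, here and below, are a description. On the relative scale, with its smaller SE, 9 members were lower and 11 higher in 10% serum (25% and 30.6%, against 21.4% and 17.9% of all genes), and 6 were lower and 9 higher in 0.1% serum (16.7% and 25%, against 17.3% and 15.1%). Of these, 5 lower members (55.6% of those in 10% serum and 83.3% of those in 0.1% serum) and 8 higher members (72.7% and 88.9%) were called in both sera, and 0 were called in opposite directions. The 5 were AKR1C3, CAT, GPX1, GPX8 and SOD3, and the 8 were FTL, GSTP1, ME1, PRDX1, PRDX3, PRDX6, SOD1 and TALDO1. The 2 comparisons share no library, but they share the clone, and here too the overlap over all tested genes was not counted. Libraries of ΔLEO1 cells lay wholly below those of WT cells for 3 members and wholly above for 13 in 10% serum on the ERCC scale (6.94% and 23.7% of all genes), and for 2 and 1 in 0.1% serum (4.83% and 4.64%). In CPM the counts were 13 and 14 in 10% serum (29.6% and 29.8%) and 6 and 9 in 0.1% serum (21.8% and 19.7%). On the ERCC scale the 2 lower members in 10% serum became 1 without library 3, 4, 5, 6, 7 or 10 (2.85 to 4.76% of all genes) and 3 without library 12 (5.92%), and the higher one was lost without library 2, 3 or 4 (2.46 to 2.48%) and became 5 without library 11 (6.03%) or 12 (7.28%). In 0.1% serum the higher member kept its call without library 1, 3 or 4, was lost without 8 of the other libraries (2.08 to 3.29% of all genes) and became 5 without library 11 (8.62%), and the lower one became 2 without library 12 (7.24%). Of the relative calls, the 9 higher members in 0.1% serum became 5 without library 7, 8 or 10 (11.1 to 11.7% of all genes) and 6 without library 11 (11.7%). Without the highest-numbered libraries the ERCC scale gave 2 lower and 1 higher member in 10% serum (6.23% and 5.47% of all genes) and 4 lower and 0 higher in 0.1% serum (12.4% and 2.55%), and the relative scale 12 lower and 17 higher (31.9% and 30.3%) and 9 lower and 19 higher (29.0% and 30.5%). The difference between the genotypes in their serum response, tested as an interaction, was called by edgeR's quasi-likelihood test for 0 members on the ERCC scale (1 at an unadjusted p under 0.05, and 0 by the likelihood ratio test and DESeq2), where 0.0604% of all genes were called lower and 0.113% higher, and for 1 on the relative scale, GCLM (0.453% and 1.55% of all genes), a count of 0 without any 1 of libraries 1, 4, 5, 6, 7, 8, 10 and 11 (0.604 to 1.23% of all genes higher), and 2 members were called without library 9 (2.35%) or 12 (2.48%). Without the highest-numbered libraries the ERCC scale called 0 members lower and 0 higher (0.408% and 0.106% of all genes). Without them the relative scale called 2 members lower and 10 higher, against 8.45% and 15.4% of all genes.

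**Figure D2:**
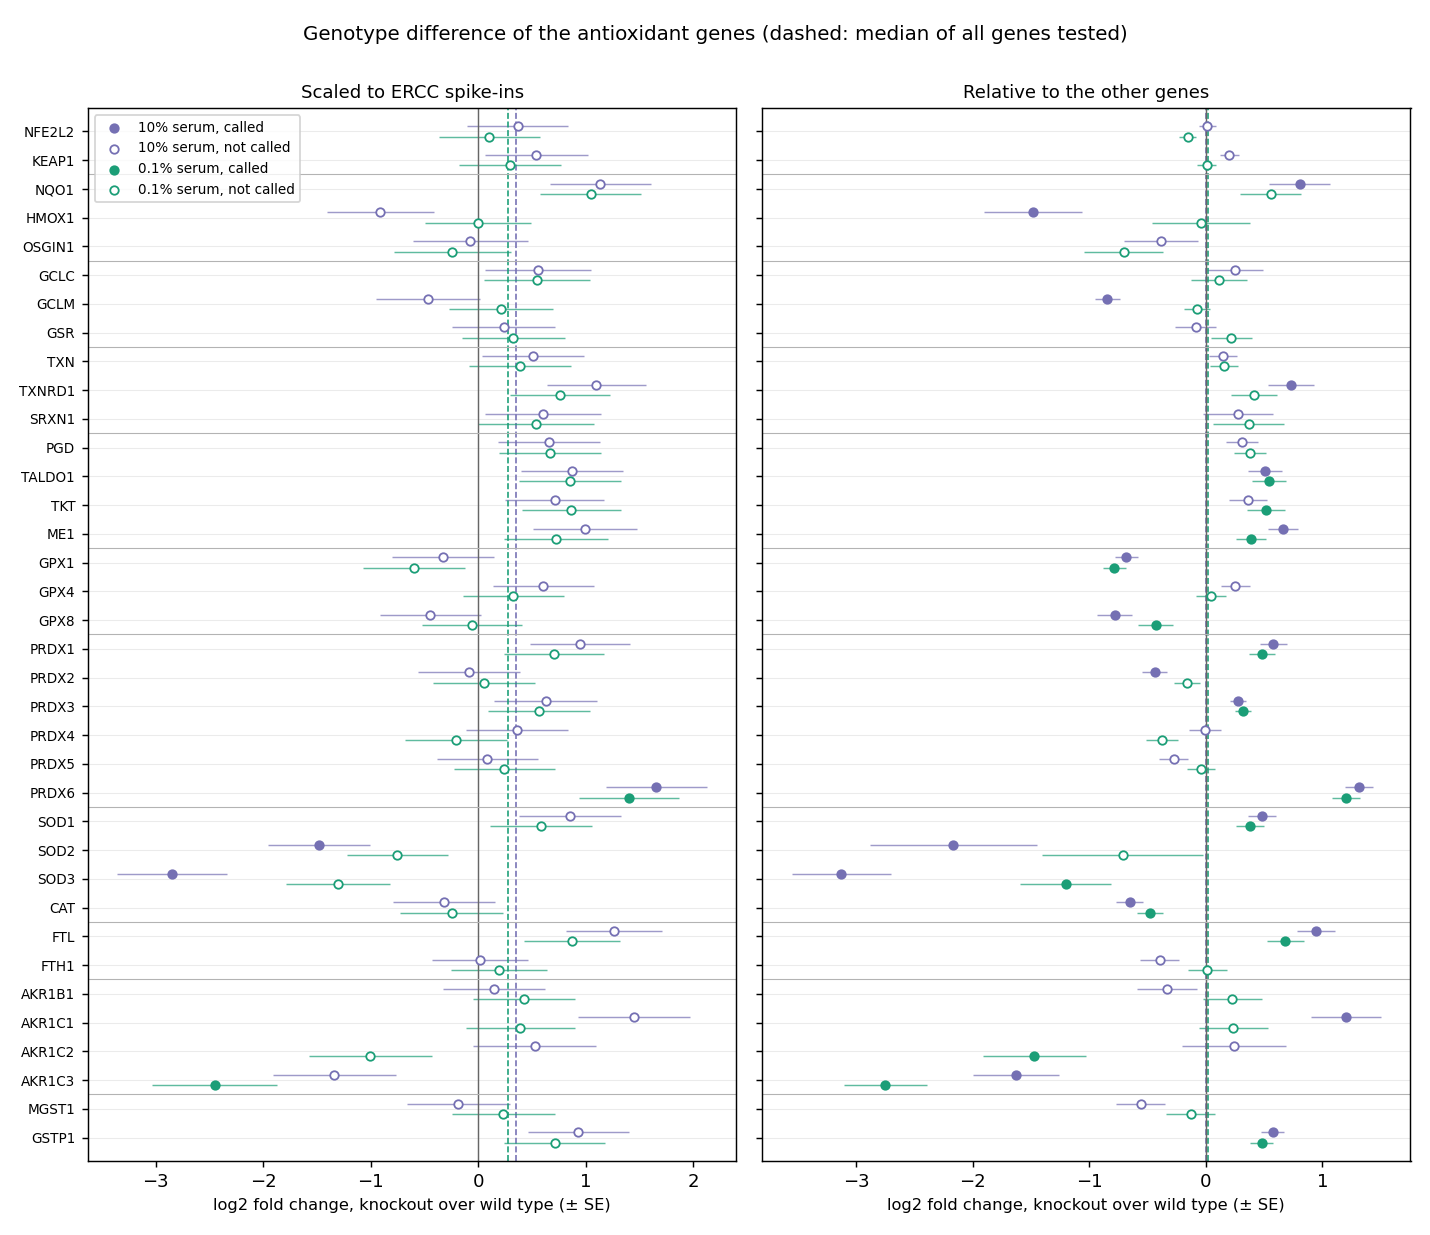
Log2 fold change of each tested member between ΔLEO1 and WT cells (horizontal axis, points with SE bars) in 10% (purple) and 0.1% serum (green), scaled to the ERCC spike-ins on the left and relative to the other genes on the right, with the median of all tested genes dashed. On the right, in 10% serum, SOD3, SOD2, AKR1C3 and HMOX1 lie farthest below zero and PRDX6, AKR1C1 and FTL farthest above it, and the SE bars are shorter than on the left for most members.

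The pathway's own regulators were called in no comparison on the ERCC scale, and on the relative scale NFE2L2 rose after serum deprivation in both genotypes and KEAP1 in WT cells. NFE2L2 (chromosome 2, 177227595 to 177392697) stood at 99.6, 105 and 108 CPM in WT and 104, 107 and 107 in ΔLEO1 cells in 10% serum. In 0.1% serum it stood at 204, 209.8 and 187 CPM in WT and 169, 176 and 189.6 in ΔLEO1 cells. The sera did not overlap in either genotype, and the genotypes overlapped in 10% serum. NFE2L2 rose relative to the other genes with serum deprivation, by 0.86 ± 0.07 (adjusted p = 1.5e-05) in WT cells and by 0.69 ± 0.07 (adjusted p = 8.42e-05) in ΔLEO1 cells. Its ERCC differences were -0.09 ± 0.47 and -0.36 ± 0.47 (WT and ΔLEO1) and were not called. The gene shares 12.5% of its 58-base stretches with an overlapping transcript, AC019080.1, and counts in that part cannot be assigned to one of them. KEAP1 (chromosome 19, 10486120 to 10503741) was at 57.7, 59.3 and 52.99 CPM in WT and 67.5, 62.96 and 66.2 in ΔLEO1 cells in 10% serum, and at 70.1, 71.5 and 76.7 in WT and 73.2, 66.9 and 76.97 in ΔLEO1 cells in 0.1% serum. It rose by 0.28 ± 0.08 (adjusted p = 0.0229) relative to the other genes in WT cells, and its value in ΔLEO1 cells was 0.08 ± 0.08 (adjusted p = 0.479). The WT call of KEAP1 was not kept in all 12 fits that left out 1 library, while the call of NFE2L2 was. Neither regulator was called between the genotypes on either scale. The ratio of NFE2L2 to KEAP1 per base of exon was 1.09, 1.12 and 1.28 in WT and 0.965, 1.07 and 1.02 in ΔLEO1 cells in 10% serum, and 1.83, 1.85 and 1.54 in WT and 1.45, 1.65 and 1.55 in ΔLEO1 cells in 0.1% serum, higher in every serum-deprived library than in any library grown in 10% serum.

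NQO1, the quinone reductase that is a standard readout of NRF2 activity, fell the most of all members in both genotypes. Its gene lies on chromosome 16 (69706996 to 69726951), and its exons overlap those of AC092115.2 on the opposite strand. NQO1 stood at 199.5, 198 and 209 CPM in WT cells in 10% serum and at 41.1, 41.6 and 82.6 in 0.1% serum. In ΔLEO1 cells it stood at 314, 339 and 414 CPM in 10% and 69.4, 63.4 and 109.7 in 0.1% serum. In counts per 1000000 ERCC counts the WT values were 25158, 20773 and 14524 in 10% and 1924, 2510.4 and 3079 in 0.1% serum, and the ΔLEO1 values 49668, 39453 and 43632 in 10% and 3654, 1898 and 9950.4 in 0.1% serum. The sera were apart in both genotypes on both scales, and the highest-numbered library was the highest of its group in CPM in all 4 groups. On the ERCC log2 scale NQO1 fell in WT cells (-3.01 ± 0.50, adjusted p = 2.13e-07, or 8.05-fold) and in ΔLEO1 cells (-3.10 ± 0.50, adjusted p = 1.72e-07, or 8.57-fold). Relative to the other genes the differences were -1.96 ± 0.27 (adjusted p = 0.000351) and -2.21 ± 0.27 (adjusted p = 0.00023). Between the genotypes NQO1 was higher in ΔLEO1 cells in 10% serum on the relative scale (0.81 ± 0.26, adjusted p = 0.0287), a call kept in 7 of the 12 fits that left out 1 library. In 0.1% serum it was 0.56 ± 0.26 (adjusted p = 0.13) and on the ERCC scale it was called in neither serum (1.13 ± 0.47 and 1.04 ± 0.47).

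HMOX1, the inducible heme oxygenase (chromosome 22, 35380361 to 35394214), fell with serum deprivation in WT cells, by an amount that 1 library raised. It stood at 22.3, 22.6 and 75.4 CPM in WT cells in 10% serum and at 14.5, 15.8 and 12.9 in 0.1% serum, and at 15.4, 14.7 and 13.3 CPM in 10% and 15.04, 17.3 and 8.84 in 0.1% serum in ΔLEO1 cells. The highest-numbered WT library in 10% serum was more than 3 times the others, and the other two were still above every other library. The WT serum difference was -2.31 ± 0.51 (adjusted p = 0.000242) on the ERCC scale and -1.57 ± 0.42 (adjusted p = 0.0158) on the relative scale. Without the highest-numbered libraries these differences were -1.67 (adjusted p = 0.00042) and -0.66 (adjusted p = 1.42e-05). In ΔLEO1 cells the ERCC difference was called (-1.40 ± 0.50, adjusted p = 0.0292) and the relative one was not (-0.13 ± 0.42, adjusted p = 0.844). The lower level of ΔLEO1 cells in 10% serum, -1.48 ± 0.42 (adjusted p = 0.0152) on the relative scale, was -0.59 without the highest-numbered libraries and was not called on the ERCC scale (-0.91 ± 0.49, adjusted p = 0.375). OSGIN1, an oxidative stress-induced growth inhibitor, was at 1.21 to 4.87 CPM and fell on the ERCC scale in both genotypes (-1.70 ± 0.55 and -1.87 ± 0.55), with no call on the relative scale or between the genotypes.

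Of the glutathione genes, GCLM fell on both scales in both genotypes, and GCLC and GSR were not called lower on the relative scale. GCLM encodes the modifier subunit and GCLC the catalytic subunit of glutamate-cysteine ligase, the first step of glutathione synthesis, and GSR encodes glutathione reductase. GCLM, on chromosome 1 (93885205 to 93909456), stood at 42.5, 40.99 and 52.9 CPM in WT and 25.1, 25.9 and 25.3 in ΔLEO1 cells in 10% serum. In 0.1% serum it stood at 16.96, 16.9 and 19.6 CPM in WT and 15.7, 16.5 and 17.96 in ΔLEO1 cells. The WT libraries in 10% serum were above all the others, and the 3 other groups lay closer together, with ΔLEO1 cells in 10% serum between. GCLM fell with serum deprivation on both scales in WT cells (-2.39 ± 0.51, adjusted p = 0.000106, on the ERCC and -1.44 ± 0.11, adjusted p = 8.08e-06, on the relative scale) and in ΔLEO1 cells (-1.71 ± 0.50, adjusted p = 0.00914, and -0.67 ± 0.11, adjusted p = 0.00125). In 10% serum it was lower in ΔLEO1 cells on the relative scale (-0.85 ± 0.11, adjusted p = 9.11e-05) and not called on the ERCC scale (-0.47 ± 0.48, adjusted p = 0.663). In 0.1% serum the genotypes differed by -0.08 ± 0.11 (adjusted p = 0.636) on the relative scale. The interaction was called on the relative scale (0.77 ± 0.15, adjusted p = 0.0279), kept that call in 4 of 12 fits without 1 library, was 0.70 (adjusted p = 0.000211) without the highest-numbered libraries, and was not called on the ERCC scale (0.68 ± 0.69, adjusted p = 1). GCLC was at 11.4 to 24.4 CPM and was called only in ΔLEO1 cells for serum on the ERCC scale (-1.19 ± 0.50, adjusted p = 0.0481). GSR rose relative to the other genes in serum-deprived ΔLEO1 cells (0.60 ± 0.18, adjusted p = 0.027), from 37.3, 38.5 and 33.8 to 62.9, 63.3 and 46.2 CPM, and its WT value was 0.29 ± 0.18 (adjusted p = 0.23).

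In the thioredoxin system the reductase and thioredoxin fell in both genotypes on both scales. TXNRD1, the cytosolic thioredoxin reductase (chromosome 12, 104215779 to 104350305), stood at 312, 309 and 441 CPM in WT and 507, 512 and 756 in ΔLEO1 cells in 10% serum, and at 136, 129.9 and 174 CPM in WT and 191, 169 and 219 in ΔLEO1 cells in 0.1% serum. The sera did not overlap in either genotype. It fell on the ERCC and the relative scale in WT cells (-2.31 ± 0.48, adjusted p = 6.97e-05, and -1.36 ± 0.20, adjusted p = 0.000539) and in ΔLEO1 cells (-2.65 ± 0.49, adjusted p = 6.14e-06, and -1.68 ± 0.20, adjusted p = 0.000203). In 10% serum every ΔLEO1 library was above every WT library in CPM, and TXNRD1 was called higher on the relative scale (0.73 ± 0.20, adjusted p = 0.012) and not on the ERCC scale (1.10 ± 0.46, adjusted p = 0.159). TXN, thioredoxin itself, was at 119, 120.4 and 121 CPM in WT and 138, 146 and 116 in ΔLEO1 cells in 10% serum, and at 77.2, 86.4 and 104 in WT and 99.1, 104 and 91.6 in ΔLEO1 cells in 0.1% serum. It fell in both genotypes on both scales (-1.50 ± 0.48 and -1.62 ± 0.48 on the ERCC scale, -0.51 ± 0.12 and -0.50 ± 0.12 on the relative scale) and was not called between the genotypes. SRXN1, sulfiredoxin, was at 1.5 to 3.82 CPM and was called nowhere. It shares 84.7% of its 58-base stretches with the overlapping AL121758.1 on the same strand, so its counts are uncertain.

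**Figure D3:**
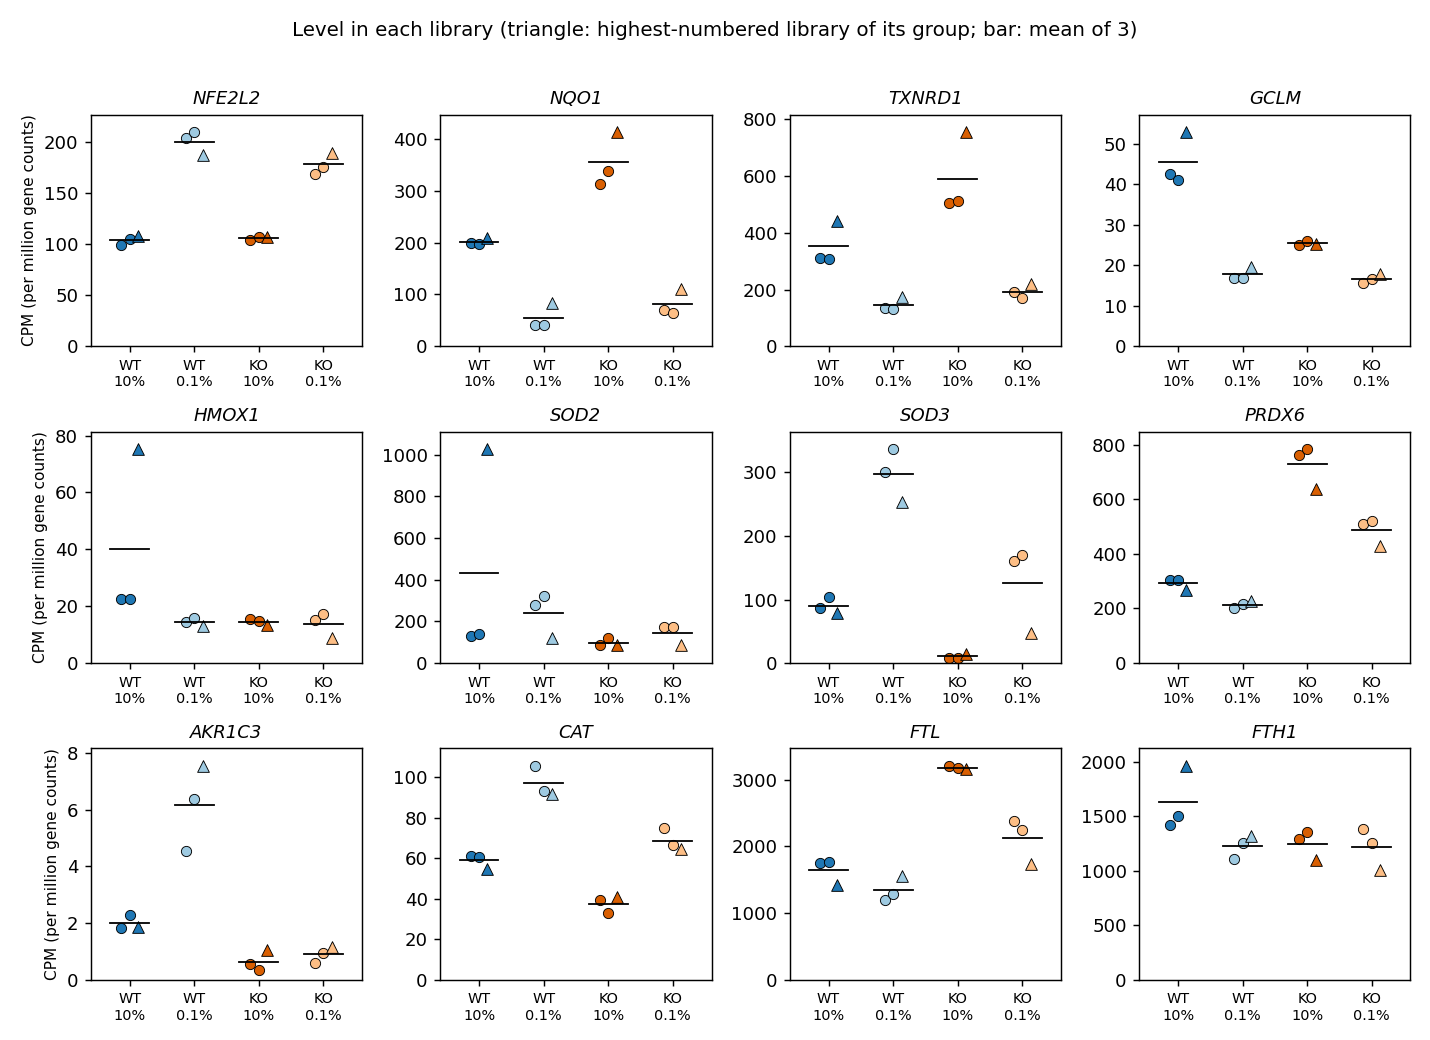
Level of 12 members in each of the 12 libraries, in CPM on linear axes from 0, by genotype (KO is ΔLEO1) and serum; circles are the 2 lower-numbered libraries and the triangle the highest-numbered library of each group, and the bar is the mean of 3. NQO1, TXNRD1 and GCLM were lower in 0.1% serum in every library of their genotype, SOD2 and HMOX1 were high in 1 WT library, and PRDX6 was higher in all 6 ΔLEO1 libraries than in any WT library.

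The genes of NADPH supply, which feeds both systems, fell with serum deprivation on the ERCC scale, where 4 of 4 were called lower in each genotype. Of all tested genes 27.0% were called lower there in WT and 36.4% in ΔLEO1 cells. ME1, cytosolic malic enzyme, stood at 40.8, 38.1 and 42.3 CPM in WT and 58.6, 60.4 and 73.6 in ΔLEO1 cells in 10% serum, and at 22.1, 21.3 and 27.9 in WT and 28.3, 29.1 and 35.3 in ΔLEO1 cells in 0.1% serum. Its serum differences in WT and ΔLEO1 cells were -1.84 ± 0.49 and -2.11 ± 0.50 on the ERCC scale and -0.85 ± 0.13 and -1.12 ± 0.13 on the relative scale, all called. TKT, transketolase, was at 352, 378 and 398 CPM in WT and 463, 436 and 561 in ΔLEO1 cells in 10% serum and at 184, 193 and 288 in WT and 301, 291 and 351 in ΔLEO1 cells in 0.1% serum. Its relative differences were -0.85 ± 0.17 (adjusted p = 0.00315) and -0.69 ± 0.17 (adjusted p = 0.0103). TALDO1, transaldolase, was at 106, 111 and 123 CPM in WT and 159, 156 and 171 in ΔLEO1 cells in 10% serum and at 71.3, 76.4 and 111 in WT and 126, 119 and 129 in ΔLEO1 cells in 0.1% serum. Its relative calls for serum (-0.48 ± 0.15, adjusted p = 0.0283, and -0.44 ± 0.15, adjusted p = 0.0436) held in 8 and 4 of 12 fits without 1 library, and in WT cells the sera overlapped in CPM. PGD, 6-phosphogluconate dehydrogenase, was not called on the relative scale (-0.23 ± 0.14 and -0.16 ± 0.14). Between the genotypes none of the 4 was called on the ERCC scale. Relative to the other genes, ME1 and TALDO1 were higher in ΔLEO1 cells in both sera (0.66 ± 0.13 and 0.39 ± 0.13 for ME1, 0.51 ± 0.15 and 0.54 ± 0.15 for TALDO1), and TKT in 0.1% serum (0.52 ± 0.17, adjusted p = 0.0334).

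Among the glutathione peroxidases GPX1, the main cytosolic enzyme, was lower in ΔLEO1 cells relative to the other genes. GPX1 (chromosome 3, 49357171 to 49358600) stood at 125, 127 and 128 CPM in WT and 81.6, 78.98 and 77.3 in ΔLEO1 cells in 10% serum, and at 103, 111 and 110.1 in WT and 66.1, 64.7 and 54 in ΔLEO1 cells in 0.1% serum, with no overlap between the genotypes in either serum. The relative differences between the genotypes were -0.68 ± 0.10 (adjusted p = 0.000214) in 10% serum and -0.79 ± 0.10 (adjusted p = 0.000112) in 0.1% serum, called in all 12 fits without 1 library, and the ERCC differences were -0.33 ± 0.47 (adjusted p = 0.753) and -0.60 ± 0.48 (adjusted p = 0.773). In a count added after the values were seen, of 141 other tested genes within 5 Mb, 62 were called lower and 4 higher in 10% serum on the relative scale, with a median of -0.34, and 43 lower and 6 higher in 0.1% serum, with a median of -0.22. With serum deprivation GPX1 fell on both scales in both genotypes (-1.28 ± 0.48 and -1.55 ± 0.48 on the ERCC scale, -0.32 ± 0.10 and -0.42 ± 0.10 on the relative scale). GPX8, a peroxidase of the endoplasmic reticulum, was lower in ΔLEO1 cells on the relative scale (-0.78 ± 0.15, adjusted p = 0.00163, and -0.43 ± 0.15, adjusted p = 0.0461) at 148, 146 and 121 against 249, 254 and 207 CPM in 10% serum, and at 157, 153 and 209.6 against 211, 209 and 285 in 0.1% serum, where the genotypes overlapped. GPX4, which reduces lipid peroxides in membranes, rose relative to the other genes in serum-deprived WT cells (0.42 ± 0.13, adjusted p = 0.0259) and was called in no other comparison.

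PRDX6 was the member that differed between the genotypes in both sera on both scales. It encodes the 1-Cys peroxiredoxin, which also has phospholipase activity, and lies on chromosome 1 (173477266 to 173488807). PRDX6 stood at 304, 303 and 269 CPM in WT and 764, 786 and 639 in ΔLEO1 cells in 10% serum, and at 201, 215 and 227 CPM in WT and 508, 520.1 and 429.6 in ΔLEO1 cells in 0.1% serum. In counts per 1000000 ERCC counts the values were 38282, 31834 and 18689.6 against 120890, 91543 and 67416 in 10% serum, and 9425, 12948 and 8464 against 26769, 15576 and 38966 in 0.1% serum. The genotypes did not overlap in either serum on either scale. The ERCC differences were 1.66 ± 0.47 (adjusted p = 0.00726) in 10% serum (3.15-fold) and 1.40 ± 0.47 (adjusted p = 0.0403) in 0.1% serum (2.64-fold). Relative to the other genes they were 1.31 ± 0.12 (adjusted p = 7e-06) and 1.20 ± 0.12 (adjusted p = 2.19e-05). The relative calls held in all 12 fits without 1 library and the ERCC calls in 9 and 4 of 12. In 0.1% serum the ERCC difference was 0.92 (adjusted p = 0.142) without the highest-numbered libraries, and the relative one was 1.36. Its 44 tested neighbours within 5 Mb had a median of 0.16 in 10% and 0.21 in 0.1% serum on the relative scale. With serum deprivation PRDX6 fell in both genotypes on both scales (-1.53 ± 0.47 and -1.78 ± 0.47 on the ERCC scale, -0.53 ± 0.12 and -0.64 ± 0.12 on the relative scale).

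Of the other 5 peroxiredoxins PRDX1 and PRDX3 were higher and PRDX2 was lower in ΔLEO1 cells relative to the other genes. PRDX1, a cytosolic 2-Cys enzyme, stood at 238, 238 and 273 CPM in WT and 371, 369 and 387 in ΔLEO1 cells in 10% serum, and at 178, 196 and 217 in WT and 291, 275 and 247 in ΔLEO1 cells in 0.1% serum. It was higher in ΔLEO1 cells in both sera on the relative scale (0.58 ± 0.11, adjusted p = 0.00172, and 0.48 ± 0.11, adjusted p = 0.00669) and fell with serum deprivation on both scales in both genotypes. Its exons overlap those of MMACHC on the opposite strand. PRDX3, the mitochondrial enzyme, was also higher in ΔLEO1 cells, by 0.28 ± 0.07 and 0.32 ± 0.07, and fell on the relative scale in serum-deprived WT cells (-0.22 ± 0.07, adjusted p = 0.0249). PRDX2 was lower in ΔLEO1 cells in 10% serum (-0.44 ± 0.11, adjusted p = 0.00775), at 72.9, 69.5 and 82.2 CPM against 97.8, 97.5 and 107. PRDX4 was called only on the ERCC scale in serum-deprived ΔLEO1 cells (-1.17 ± 0.48, adjusted p = 0.0442), and PRDX5 was called nowhere.

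SOD3, the secreted superoxide dismutase bound to the cell surface and matrix, had the largest genotype difference of the tested members, and in ΔLEO1 cells it was the 1 member that rose with serum deprivation on the ERCC scale. The gene lies on chromosome 4 (24789912 to 24800842). SOD3 stood at 86.7, 104 and 78.7 CPM in WT and 8.48, 8.30 and 14.1 in ΔLEO1 cells in 10% serum. In 0.1% serum it stood at 301, 337 and 254 CPM in WT and 160.3, 170.4 and 46.6 in ΔLEO1 cells. In CPM the genotypes were apart in both sera and the sera apart in both genotypes, although the highest-numbered ΔLEO1 library in 0.1% serum was well below the other two. In counts per 1000000 ERCC counts the values in 10% serum were 10935, 10916 and 5469 in WT and 1342, 967 and 1488 in ΔLEO1 cells, and in 0.1% serum 14081, 20352 and 9457 in WT and 8444, 5104 and 4225 in ΔLEO1 cells. In ΔLEO1 cells SOD3 rose with serum deprivation by 2.23 ± 0.50 (adjusted p = 0.000362) on the ERCC scale and by 3.56 ± 0.44 (adjusted p = 0.000216) on the relative scale. In WT cells it rose by 1.64 ± 0.40 (adjusted p = 0.00949) on the relative scale, and its ERCC difference was 0.68 ± 0.48 (adjusted p = 0.205). In 10% serum SOD3 was lower in ΔLEO1 cells on both scales (-2.85 ± 0.51, adjusted p = 9.44e-07, a 7.19-fold difference, and -3.13 ± 0.43, adjusted p = 0.000149), called in all 12 fits without 1 library. In 0.1% serum the difference was -1.20 ± 0.39 (adjusted p = 0.0355) on the relative scale and -1.30 ± 0.48 (adjusted p = 0.0873) on the ERCC scale. The interaction was 1.92 ± 0.56 (adjusted p = 0.123) on the relative scale and 1.54 ± 0.67 (adjusted p = 1) on the ERCC scale, and 2.63 (adjusted p = 5.26e-09) on the relative scale without the highest-numbered libraries. Its 14 tested neighbours within 5 Mb had medians of -0.05 and -0.15, and 4 of them were called lower and 1 higher in each serum.

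SOD2, the mitochondrial superoxide dismutase (chromosome 6, 159669057 to 159745186), was called on the ERCC scale through 1 library. It stood at 128, 141 and 1029 CPM in WT cells in 10% serum and at 279, 324 and 120.5 in 0.1% serum, and at 87.8, 118 and 85.9 in 10% and 173, 174 and 84.6 in 0.1% serum in ΔLEO1 cells. The highest-numbered WT library in 10% serum was more than 3 times any other library. With all libraries SOD2 was lower in ΔLEO1 cells in 10% serum (-1.48 ± 0.48, adjusted p = 0.0269, on the ERCC scale) and fell with serum deprivation in WT cells (-1.47 ± 0.48, adjusted p = 0.0163). Without the highest-numbered libraries these values were -0.16 (adjusted p = 0.856) and 0.08 (adjusted p = 0.868) and on the relative scale SOD2 was then higher in serum-deprived WT cells (1.08, adjusted p = 6.79e-07). With all libraries the relative difference between the genotypes in 10% serum was -2.17. SOD2 was not among the lower calls there that were kept in all 12 fits without 1 library. SOD1, the cytosolic copper-zinc enzyme, was higher in ΔLEO1 cells on the relative scale (0.49 ± 0.12, adjusted p = 0.00786, and 0.38 ± 0.12, adjusted p = 0.0331), at 147, 141 and 151 CPM against 98.4, 102 and 112 in 10% serum. CAT, catalase of the peroxisome, stood at 61.3, 60.6 and 54.98 CPM in WT and 39.5, 32.9 and 40.7 in ΔLEO1 cells in 10% serum, and at 106, 93.5 and 91.7 in WT and 74.8, 66.7 and 64.7 in ΔLEO1 cells in 0.1% serum. CAT rose relative to the other genes with serum deprivation in both genotypes (0.63 ± 0.11, adjusted p = 0.00178, and 0.81 ± 0.11, adjusted p = 0.000516) and was lower in ΔLEO1 cells in both sera (-0.65 ± 0.11, adjusted p = 0.000834, and -0.48 ± 0.11, adjusted p = 0.00738). CAT was not called in any of these comparisons on the ERCC scale, with serum differences of -0.35 and -0.28.

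Of the ferritin chains, which store iron, FTL was higher in ΔLEO1 cells relative to the other genes and FTH1 was not called. FTL, the light chain (chromosome 19, 48965301 to 48966878), stood at 1745, 1762 and 1423 CPM in WT and 3212, 3168 and 3163 in ΔLEO1 cells in 10% serum, and at 1189.5, 1287 and 1556 in WT and 2375, 2243 and 1742 in ΔLEO1 cells in 0.1% serum. Every ΔLEO1 library was above every WT library of the same serum. FTL was higher in ΔLEO1 cells on the relative scale in 10% serum (0.95 ± 0.16, adjusted p = 0.000683) and 0.1% serum (0.68 ± 0.16, adjusted p = 0.00684), called in all 12 fits without 1 library, and was not called on the ERCC scale (1.26 ± 0.45, adjusted p = 0.0574, and 0.87 ± 0.44, adjusted p = 0.384). FTH1, the heavy chain with the ferroxidase site (chromosome 11, 61959718 to 61967660), stood at 1421, 1501 and 1964 CPM in WT and 1287, 1355 and 1098 in ΔLEO1 cells in 10% serum and at 1106, 1258 and 1319.9 in WT and 1386, 1257 and 1010.0 in ΔLEO1 cells in 0.1% serum, and was not called between the genotypes on either scale. The ratio of FTH1 to FTL per base of exon was 0.352, 0.368 and 0.597 in WT and 0.173, 0.185 and 0.150 in ΔLEO1 cells in 10% serum, and 0.402, 0.423 and 0.367 in WT and 0.252, 0.242 and 0.251 in ΔLEO1 cells in 0.1% serum. All 6 ΔLEO1 libraries were below all 6 WT libraries, and an exact permutation test of 3 against 3 libraries cannot go below p = 0.1. With serum deprivation FTL and FTH1 fell on the ERCC scale in both genotypes, and on the relative scale FTH1 fell in WT cells (-0.49 ± 0.17, adjusted p = 0.0435) and FTL in ΔLEO1 cells (-0.64 ± 0.16, adjusted p = 0.0125). FTH1 shares 18.0% and FTL 14.6% of its 58-base stretches with other genes, many of them pseudogenes, and FTH1 overlaps BEST1 on the opposite strand.

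**Figure D4:**
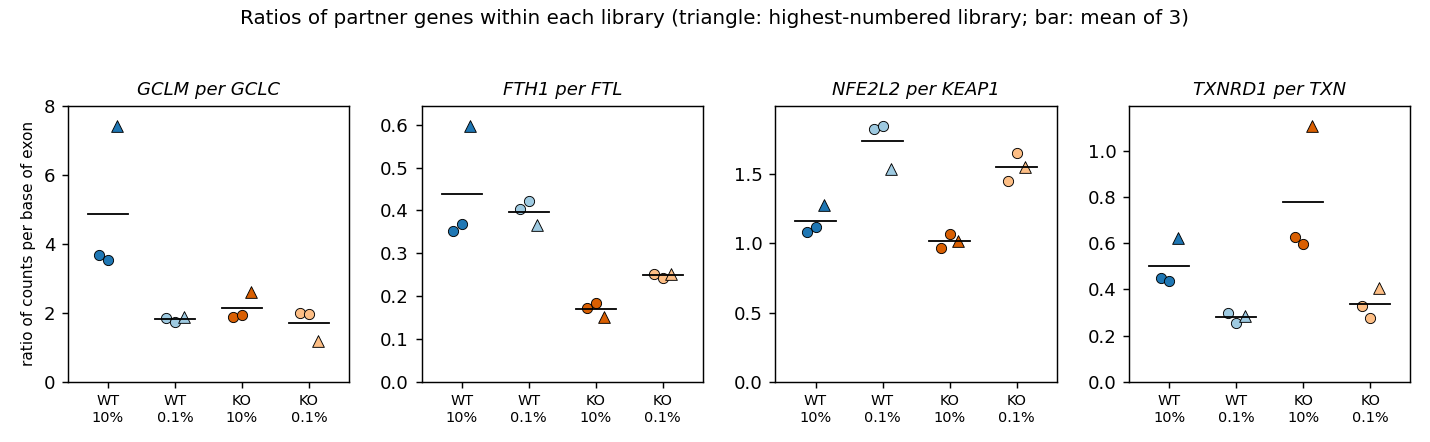
Ratio of counts per base of exon for 4 pairs of partner genes in each of the 12 libraries, on linear axes from 0, by genotype (KO is ΔLEO1) and serum; circles are the 2 lower-numbered libraries, the triangle the highest-numbered library, and the bar the mean of 3. GCLM per GCLC was 3.53 or more in all WT libraries in 10% serum and 2.62 or less elsewhere, and FTH1 per FTL was lower in all 6 ΔLEO1 libraries than in any WT library.

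The pair ratios, chosen after the values were seen, set partners of one complex or one step side by side within each library, where scaling cancels. GCLM per GCLC was 3.68, 3.53 and 7.43 in WT cells in 10% serum and 1.84, 1.75 and 1.88 in 0.1% serum. In ΔLEO1 cells it was 1.89, 1.95 and 2.62 in 10% and 1.99, 1.98 and 1.18 in 0.1% serum. WT cells in 10% serum thus stood above the 3 other groups. ΔLEO1 cells in 10% serum lay wholly above WT cells in 0.1% serum, and ΔLEO1 cells in 0.1% serum overlapped both. TXNRD1 per TXN was 0.448, 0.437 and 0.622 in WT and 0.624, 0.597 and 1.11 in ΔLEO1 cells in 10% serum, and 0.299, 0.256 and 0.283 in WT and 0.329, 0.277 and 0.408 in ΔLEO1 cells in 0.1% serum, lower in 0.1% serum in all libraries of both genotypes.

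Of the aldo-keto reductases AKR1C3 was lower in ΔLEO1 cells in both sera relative to the other genes, AKR1C2 was lower in 0.1% serum and AKR1C1 was higher in 10% serum. AKR1C3 reduces steroids and prostaglandins, lies on chromosome 10 (5035354 to 5107686) beside AKR1C1 and AKR1C2, and was a low-count gene. AKR1C3 had 66, 90 and 73 counts in WT and 21, 15 and 47 in ΔLEO1 cells in 10% serum, and 153, 167 and 253 counts in WT and 21, 31 and 41 in ΔLEO1 cells in 0.1% serum. In CPM these were 1.81, 2.30 and 1.86 against 0.541, 0.331 and 1.06, and 4.55, 6.36 and 7.55 against 0.604, 0.953 and 1.16. All 6 WT libraries and 2 of the ΔLEO1 libraries were above the filter's 1 CPM, so WT cells brought it into the test. It passed the filter only through the genotype where it was high, so its genotype differences are given as a description. AKR1C3 was lower in ΔLEO1 cells in 0.1% serum on both scales (-2.45 ± 0.58, a 5.46-fold difference, and -2.75 ± 0.36). In 10% serum it was lower on the relative scale (-1.63 ± 0.37) and not called on the ERCC scale (-1.34 ± 0.57, adjusted p = 0.164). With serum deprivation it rose in WT cells relative to the other genes (1.54 ± 0.33, adjusted p = 0.00506), and its ΔLEO1 value was 0.42 ± 0.39 (adjusted p = 0.454). AKR1C1 stood at 5.76, 6.36 and 4.03 CPM in WT and 9.51, 11.01 and 16.7 in ΔLEO1 cells in 10% serum and was higher in ΔLEO1 cells there on the relative scale (1.20 ± 0.30, adjusted p = 0.00807), and it rose in serum-deprived WT cells (0.96 ± 0.30, adjusted p = 0.032). AKR1C2 was lower in ΔLEO1 cells in 0.1% serum (-1.47 ± 0.44, adjusted p = 0.0249) and rose in serum-deprived WT cells (1.23 ± 0.43, adjusted p = 0.0492), where the highest-numbered library had 131 counts and the other two 46 and 33, and without the highest-numbered libraries that rise was 0.32 (adjusted p = 0.338). AKR1C1 and AKR1C2 share 26.2% and 35.8% of their 58-base stretches with other genes and AKR1C3 3.99%, so the split of counts between AKR1C1 and AKR1C2 is uncertain. AKR1B1, aldose reductase, fell with serum deprivation in WT cells on both scales (-1.80 ± 0.49, adjusted p = 0.00349, and -0.92 ± 0.26, adjusted p = 0.0186), from 94.7, 103 and 193 to 63.7, 71.3 and 84.4 CPM, and in ΔLEO1 cells on the ERCC scale (-1.52 ± 0.48, adjusted p = 0.0169). The highest-numbered WT library in 10% serum was well above the others, and neither WT call of AKR1B1 was kept in all 12 fits that left out 1 library.

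Of the glutathione transferases, GSTP1, the main cytosolic form in fibroblasts here, stood at 188, 184 and 193 CPM in WT and 284, 292 and 269 in ΔLEO1 cells in 10% serum, and at 154, 165 and 183 in WT and 243, 233 and 214 in ΔLEO1 cells in 0.1% serum. It was higher in ΔLEO1 cells in both sera on the relative scale (0.57 ± 0.10, adjusted p = 0.000683, and 0.48 ± 0.10, adjusted p = 0.00294), called in all 12 fits without 1 library. With serum deprivation it fell on the ERCC scale in both genotypes and on the relative scale in ΔLEO1 cells (-0.35 ± 0.10, adjusted p = 0.0203). MGST1, a membrane-bound transferase, was called only in serum-deprived WT cells on the ERCC scale (-1.55 ± 0.49, adjusted p = 0.0136), at 35.02, 37.6 and 68.02 against 63.2, 61 and 63.8 CPM, and the highest-numbered library was the one that overlapped.

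Beside the members, 79 other genes of the pathway were listed, and 71 of them were tested. They covered other NRF2-family factors, cystine uptake, glutaredoxins, transferases, iron handling and methionine sulfoxide reductases. In 0.1% against 10% serum 28 of these fell and 1 rose in WT cells on the ERCC scale (39.4% and 1.41%, against 27.0% and 0.831% of all genes), and 35 fell and 0 rose in ΔLEO1 cells (49.3% and 0%, against 36.4% and 0.793%). On the relative scale 18 fell and 3 rose in WT cells (25.4% and 4.23%, against 16.1% and 15.5%) and 15 fell and 4 rose in ΔLEO1 cells (21.1% and 5.63%, against 12.1% and 15.5%). SLC7A11, the cystine transporter and a well-known NRF2 target, fell in both genotypes on the ERCC scale (-2.63 ± 0.50, adjusted p = 1.05e-05, and -2.53 ± 0.50, adjusted p = 3.59e-05). It stood at 103, 106 and 72.4 CPM in 10% and 23.3, 19.1 and 66.05 in 0.1% serum in WT cells, with the highest-numbered library nearest to the level in 10% serum. It was called in ΔLEO1 cells only on the relative scale (-1.82, against -1.45 ± 0.53, adjusted p = 0.0543, in WT cells). IDH2, the mitochondrial NADP-dependent isocitrate dehydrogenase, fell on both scales in both genotypes (-1.53 ± 0.13 and -1.07 ± 0.13 on the relative scale), as did GLRX (-0.84 ± 0.21 and -0.92 ± 0.21) and, in WT cells, ABCC3 (-1.46 ± 0.12). CHAC2, which breaks down glutathione, had 38, 48 and 25 counts in 10% and 14, 15 and 9 in 0.1% serum in WT cells and 55, 89 and 68 and 32, 22 and 29 in ΔLEO1 cells. It passed the filter only through libraries of 10% serum, where it was high, so its call as lower (-1.31 ± 0.33 and -1.08 ± 0.29 on the relative scale) is given as a description. BACH2, a repressor of the same DNA element, had 5, 6 and 0 counts in 10% and 185, 139 and 40 in 0.1% serum in WT cells. Above 1 CPM were all 3 WT libraries in 0.1% serum and 2 of the ΔLEO1 libraries in 0.1% serum, so BACH2 passed the filter only through the groups where it was high, and its difference in WT cells (4.34 ± 0.70 on the ERCC scale), the 1 rise counted above, is likewise a description.

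Between the genotypes, 4 of the 71 were lower and 2 higher in 10% serum on the ERCC scale (5.63% and 2.82%, against 4.2% and 3.81% of all genes), and 3 were lower and 2 higher in 0.1% serum (4.23% and 2.82%, against 3.41% and 3.49%), shares close to those of all genes. On the relative scale 18 were lower and 11 higher in 10% serum (25.4% and 15.5%, against 21.4% and 17.9%) and 15 lower and 16 higher in 0.1% serum (21.1% and 22.5%, against 17.3% and 15.1%). Of the lower genes on the ERCC scale, OPLAH and SLC40A1 passed the filter only through WT libraries, and BACH2 only with those of WT cells in 0.1% serum. OPLAH, 5-oxoprolinase of the glutathione cycle, had 245, 270 and 356 counts in WT cells in 10% serum and 135, 109 and 206 in 0.1% serum, and 0 counts in all 6 ΔLEO1 libraries. In counts per 1000000 gene counts and against a floor of 3 counts over the group, which covers counting error only, it was at least 325-fold lower in 10% and at least 165-fold lower in 0.1% serum. SLC40A1, the iron exporter ferroportin, had 172, 186 and 165 counts in WT and 0 in ΔLEO1 cells in 10% serum, at least 195-fold lower, and 146, 99 and 222 counts in WT cells in 0.1% serum. In 0.1% serum ΔLEO1 cells had 3 counts, all in the highest-numbered library, 171-fold lower with a 95% counting interval of 58.2 to 832. GSTM3, a transferase, was higher in ΔLEO1 cells in both sera (3.19 ± 0.54, adjusted p = 1.86e-07, and 2.20 ± 0.52, adjusted p = 0.000675, on the ERCC scale), at 27.8, 24.9 and 34.01 CPM against 4.09, 4.06 and 3.70 in 10% serum. GLRX, glutaredoxin, was higher as well (2.15 ± 0.49, adjusted p = 0.000334, and 1.80 ± 0.49, adjusted p = 0.00472), at 197, 215 and 125 against 47.8, 49.5 and 63.4 CPM. MGST2 was lower in 10% serum (-2.21 ± 0.55, adjusted p = 0.00112), as was ABCC3, an exporter of conjugates (-1.88 ± 0.50, adjusted p = 0.0034), and BACH2, which the WT libraries brought into the test, differed by -2.27 ± 0.59 in 0.1% serum, with 39, 35 and 14 counts in ΔLEO1 cells. MGST2 had 23 tested neighbours within 5 Mb with a median of -0.14 in 10% serum on the relative scale.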

How the data were processed

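RNA was measured by poly(A)-selected RNA-seq with ERCC spike-ins in 12 libraries of 4 groups (3 each), grouped by the labels. The authors deposited raw read counts per Ensembl gene and ERCC transcript. The submitters' processing notes name bcl2fastq 2.20.0.422, STAR 2.7.10a, featureCounts 1.5.1 and GRCh38, and the study's methods name another STAR release. Which Ensembl release was used, and whether reads were counted by strand, is not given in the sources used here, so overlapping opposite-strand genes cannot be told apart. Genes above 1 CPM in at least 3 libraries (13236 of 60671) were tested with edgeR 4.0.16 (R 4.3.3), quasi-likelihood F test, two-sided, Benjamini-Hochberg over all of them, with 1 model of the 4 groups and all 12 libraries. Effective library sizes were ERCC counts times their TMM factor, as in the study's methods (ERCC scale), or TMM on the genes (relative scale). The SE is the size of the log2 fold change divided by the square root of F. The ERCC scale rests on the 0.625 to 3.24% of counts that were ERCC. The fits were tested on simulated data.

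Symbols were matched through the table of gene names (60401 of 60671 identifiers listed, 42020 with a symbol), and SOD2 through GENCODE 29, which also gave positions and exon lengths for TPM. Shared 58-base stretches were counted between annotated transcripts. The members and lists were chosen with earlier results of these data known, and the pair ratios and neighbour counts after values were seen. By rule, every member is accounted for, library values are given for the main NRF2 genes and for members called on the ERCC scale between genotypes or on both scales for serum, and other pathway genes are named where called between genotypes on the ERCC scale or among the 3 largest serum changes. Alternatives were the likelihood ratio test, DESeq2 1.42.0 with ERCC size factors, ERCC totals without TMM, no filter, only the 6 libraries compared, leaving out or adding a term for the highest-numbered library of each group, and leaving out each library. On the relative scale, the fits that left out 1 library and the term for the highest-numbered libraries were added after the data were seen.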

Additional observations from a re-analysis of the deposited data

Results flagged for a closer look

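Effects that differed between groups, or that ran in opposite directions in them, are given here on the relative scale. GCLM fell more with serum deprivation in WT than in ΔLEO1 cells, with an interaction of 0.77 ± 0.15 (adjusted p = 0.0279) and on the ERCC scale the interaction was 0.68 ± 0.69 (adjusted p = 1). ABCC3, a pathway gene outside the members, fell in WT (-1.46 ± 0.12) and was -0.27 ± 0.12 in ΔLEO1 cells, with an interaction of 1.20 ± 0.17 (adjusted p = 0.00756) on the relative scale and 1.11 ± 0.69 (adjusted p = 1) on the ERCC scale. MSRB2, a methionine sulfoxide reductase, was lower in every serum-deprived library of WT and higher in every one of ΔLEO1 cells (-0.28 ± 0.12 in WT and 0.20 ± 0.12 in ΔLEO1 cells), and the interaction of 0.48 ± 0.17 (adjusted p = 0.216) was not called. BACH2 differed by 0.81 ± 1.02 between ΔLEO1 and WT cells in 10% serum, at 0 to 8 counts per library. That value is smaller than its SE, so no direction can be read there. In 0.1% serum BACH2 was lower in ΔLEO1 cells (-2.17 ± 0.58), and the interaction of -2.98 ± 1.17 (adjusted p = 0.275) was not called. BACH2 passed the filter only through serum-deprived libraries.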

How the results depend on the processing

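No paired analysis was possible because the libraries carry the numbers 1 to 12 and no 2 groups share a number. With TMM on the genes in place of the ERCC scale, the counts of members called lower and higher became 14 and 8 for serum in WT cells, 12 and 4 in ΔLEO1 cells, 9 and 11 for genotype in 10% serum, 6 and 9 in 0.1% serum and 0 and 1 for the interaction. Serum differences called on the relative scale turned direction for NFE2L2 (0.86), KEAP1 (0.28), GPX4 (0.42), CAT (0.63) and AKR1C1 (0.96) in WT cells and for NFE2L2 (0.69), GSR (0.60) and CAT (0.81) in ΔLEO1 cells. These turns came with the scale, since the median gene lies at -0.97 and -1.05 on the ERCC scale. Without the highest-numbered libraries the ERCC scale gave 4 lower and 0 higher members for genotype in 0.1% serum, and SOD2 turned to 0.075 for serum in WT cells. Without them on the relative scale the counts were 22 and 10, 19 and 8, 12 and 17, 9 and 19, and 2 and 10, in the same order. There the values turned against the ERCC scale for serum in WT cells in NFE2L2 (0.93), KEAP1 (0.19), GSR (0.38), GPX4 (0.23), PRDX4 (0.36), SOD2 (1.08), CAT (0.62) and AKR1C1 (0.53), in ΔLEO1 cells in NFE2L2 (0.69), HMOX1 (0.081), GSR (0.72), GPX4 (0.25), PRDX2 (0.30), PRDX4 (0.011), SOD2 (0.73), CAT (0.95) and AKR1C1 (0.51), and for genotype in PRDX5 (-0.25) in 10% serum and NFE2L2 (-0.21) in 0.1% serum. For genotype, AKR1B1 in 10% serum (0.21) and MGST1 in 0.1% serum (0.22) turned instead against the relative scale with all libraries (-0.33 and -0.13). Without a filter 14 members were lower for serum in ΔLEO1 cells and 0 higher for genotype in 0.1% serum. With only the 6 libraries compared these were 5 and 0, and 5 members were higher for genotype in 10% serum. A term for the highest-numbered libraries gave 14 and 0, and 1 lower member in 10% serum. The likelihood ratio test called 3 members higher for genotype in 10% serum, and DESeq2 called 1 lower and 3 higher there and 2 lower in 0.1% serum. The shares of all genes called in these alternative fits are not given here. These counts therefore do not show whether the members changed differently from the other genes. Leaving out 1 library, the lower counts ranged over 5 to 26 (WT serum), 4 to 32 (ΔLEO1 serum), 1 to 3 (10% serum) and 1 to 2 (0.1% serum) and the higher counts for genotype over 0 to 5 in both sera on the ERCC scale. Relative counts ranged over 8 to 19 lower and 4 to 9 higher for serum in WT cells, 5 to 12 higher for genotype in 0.1% serum and 0 to 2 higher for the interaction. Shares of all genes are not given here for these ranges either. The causes were not tested. ERCC counts, with SE of 0.44 to 0.58, limit the main scale, and 3 libraries a group limit both.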
